A study of Mus musculus with 10 samples.

Results

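The genes described here are 10 genes by which an epithelial-mesenchymal transition (EMT) is usually read. They are the transcription factor genes Snai1, Snai2, Twist1, Twist2, Zeb1 and Zeb2, the cadherin genes Cdh1, Cdh2 and Cdh3, and the vimentin gene Vim. They were chosen by gene symbol. All 10 had a row in the expression table of the SB431542 experiment, which lists 17658 genes, and 9 had a row in that of the T-5224 experiment, which lists 16719 genes. Twist2 is not listed in the T-5224 table. The tables together list 18380 genes.

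RNA-seq was done on ASZ001, a mouse basal cell carcinoma (BCC) cell line that is resistant to Smoothened inhibitors, which block Hedgehog signalling. In 1 experiment, SB431542, an inhibitor of the TGFß receptor kinase ALK5, was given at 10 µM (3 libraries) beside its vehicle, DMSO (3 libraries). The other set T-5224, which inhibits the transcription factor AP-1, at 20 µM (2 libraries) beside its own DMSO (2 libraries). Each treatment lasted 24 h in 154CF medium, with chelated FBS lowered from the 2% of routine culture to 0.2% and with CaCl2 kept at 0.05 mM. All groups are this 1 cell line in low serum and low calcium. The study describes the replicates as biological. The comparisons ask which of these genes depend on TGFß receptor signalling or on AP-1 in resistant BCC cells.

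In an EMT, epithelial cells loosen their junctions and take on a mesenchymal, motile state. Transcription factors of the SNAIL, TWIST and ZEB families drive it, and SNAIL and ZEB proteins repress E-cadherin by binding E-box sequences in its promoter. Cadherins are calcium-dependent adhesion molecules of adherens junctions. A switch from E-cadherin to N-cadherin and a rise of the intermediate filament protein vimentin are the classic signs of the transition. TGFß signalling is a strong inducer of it in many epithelia, and AP-1 takes part in the response of many TGFß target genes. P-cadherin, the product of Cdh3, marks basal keratinocytes and the matrix of the hair follicle.

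Promoter sequences are shown for 3 of the transcription factor genes, because the binding sequences of the factors at issue can be read in them or are missing from them. RefSeq start sites (GRCm38.p6) were used for Snai1, Twist1, Twist2, Zeb2 and Vim, which are 5 of the 10 genes. The other genes were not searched, whether or not start sites are listed for them. The genes used had 8 start sites in all, of which Zeb2 has several. The 250 bases before each start site were searched on both strands for CACCTG, the E-box that SNAIL and ZEB proteins prefer, for CANNTG, which is any E-box and includes the first, and for TGANTCA, the AP-1 site. CACCTG is in 17.2% of the 32851 promoters of the same length, CANNTG in 66.2% and TGANTCA in 6.75%. The Zeb2 window is on the minus strand (chr2:45110308-45110527), ends 30 bases before its start site because those 30 bases lie in an annotated transcript, and has TGAGTCA and TGACTCA in capitals, which begin at −189 and −132 from the start site. The Snai1 window (chr2:167537945-167538194, plus strand) has CACCTG in capitals, beginning at −126. The Twist1 window (chr12:33957421-33957670, plus strand) holds none of the 3 motifs, so it has no capitals.
Zeb2: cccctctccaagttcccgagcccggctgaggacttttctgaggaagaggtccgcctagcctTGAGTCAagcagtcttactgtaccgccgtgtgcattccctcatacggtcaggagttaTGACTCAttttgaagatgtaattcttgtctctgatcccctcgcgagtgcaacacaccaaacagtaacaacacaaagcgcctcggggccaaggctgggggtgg
Snai1: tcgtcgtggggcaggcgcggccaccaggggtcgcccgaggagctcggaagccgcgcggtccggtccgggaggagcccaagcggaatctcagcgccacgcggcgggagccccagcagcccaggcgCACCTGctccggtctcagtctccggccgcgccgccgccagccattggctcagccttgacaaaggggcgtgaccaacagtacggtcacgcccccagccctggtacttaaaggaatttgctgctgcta
Twist1: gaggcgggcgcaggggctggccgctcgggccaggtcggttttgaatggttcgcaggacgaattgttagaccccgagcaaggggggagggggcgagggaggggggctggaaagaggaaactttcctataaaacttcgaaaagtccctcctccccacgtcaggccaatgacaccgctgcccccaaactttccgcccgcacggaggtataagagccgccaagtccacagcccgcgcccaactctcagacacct
The windows of Vim, of Twist2 and of the other Zeb2 start sites held none of the 3 motifs. A match in these letters is a description of the sequence, and binding was not measured here.

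Expression is given as RPKM, in which reads are scaled by gene length and by library size, which allows levels to be compared between genes. In DMSO, the mean RPKM of the SB431542 experiment fell in the order Cdh1, Cdh3, Cdh2, Snai2, Twist1, Vim, Zeb2 and Zeb1, with Snai1 and Twist2 close to 0. Neighbours in that order had separate DMSO values except for Cdh1 and Cdh3 and for Zeb2 and Zeb1, whose values overlapped. DMSO in the T-5224 experiment gave the same order for the first 5 genes, followed by Zeb2, Vim and Zeb1, and there only the values of Vim and Zeb1 overlapped. The cells therefore carried Cdh1, Cdh3 and Cdh2 at a high level and little vimentin mRNA. Snai2 was the most abundant of the 6 transcription factor genes. Of all genes listed in the SB431542 table, 97.1% had a lower mean in DMSO than Cdh1, 95% a lower mean than Cdh2 and 43% a lower mean than Vim. For Snai2 and Twist1 these shares were 90.5% and 60.9%.

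**Figure D1:**
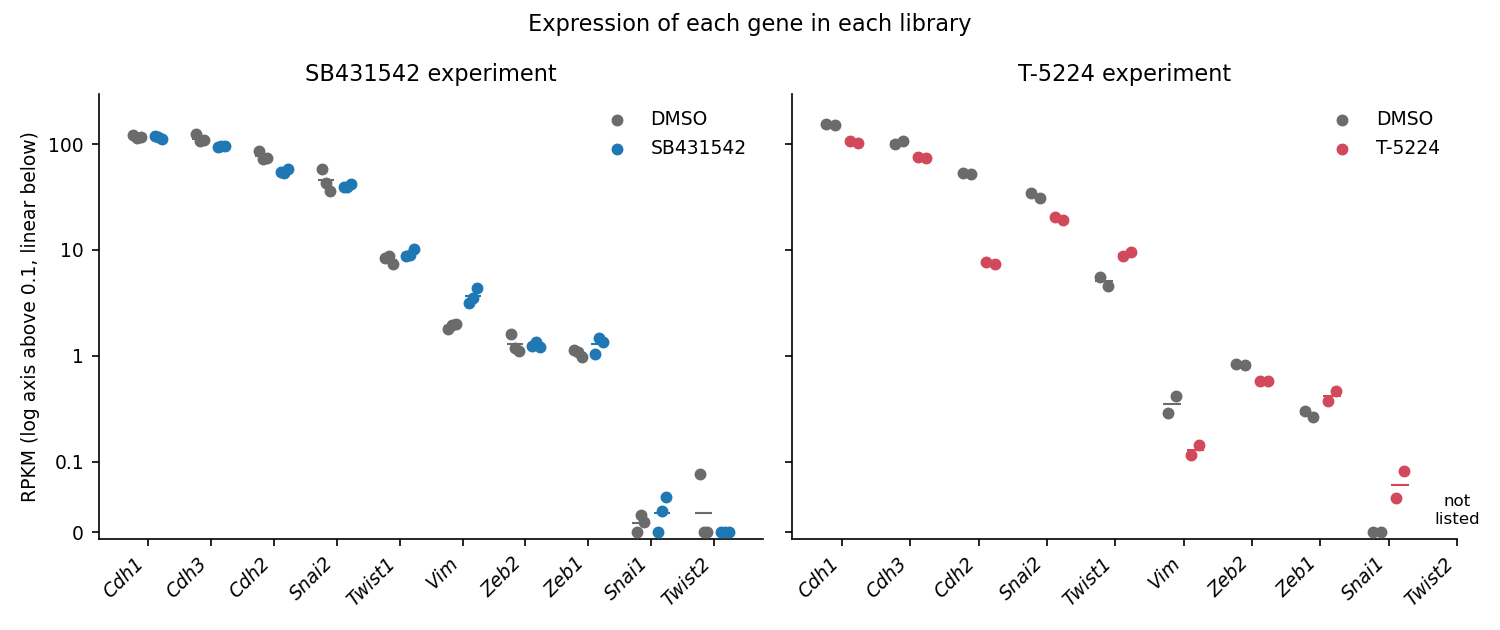
RPKM of the 10 genes in each library of the SB431542 experiment (left) and the T-5224 experiment (right), on an axis that is logarithmic above 0.1 and linear below it. Points are libraries and short lines are group means. Cdh2 lies lower in T-5224 (7.32 and 7.68) than in its DMSO libraries (51.5 and 53.6), and Vim is higher in SB431542 than in its DMSO libraries.

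A gene was tested when its mean over the libraries of a table was at least 1 RPKM. This left 8 of the 10 genes in the SB431542 experiment, without Snai1 and Twist2, and 5 in the T-5224 experiment, which were Snai2, Twist1, Cdh1, Cdh2 and Cdh3. A gene was called lower or higher at an adjusted p under 0.05 (limma on log2(RPKM + 0.5), with Benjamini-Hochberg adjustment over all genes tested). With SB431542, Cdh2 was the 1 of 8 genes called lower, where 10% of the 10842 genes tested were, and Vim was the 1 of 8 called higher, where 10.2% were. Neither passed the 2-fold limit that the study used, which 0.581% of all genes passed downward and 0.231% upward. With T-5224, 4 of 5 genes were lower, where 39.4% of the 10809 genes tested were, and 1 of 5 was higher, where 40.3% were. Since 79.7% of all genes tested were called in 1 direction or the other with T-5224, a call there is common to most genes. Cdh2 alone of the 5 fell more than 2-fold, as 10.6% of all genes did, and none rose more than 2-fold, as 10.4% did (21% in either direction). The libraries are bulk RNA, so fewer cells that express a gene and less of its RNA per cell cannot be told apart in any of these results.

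**Figure D2:**
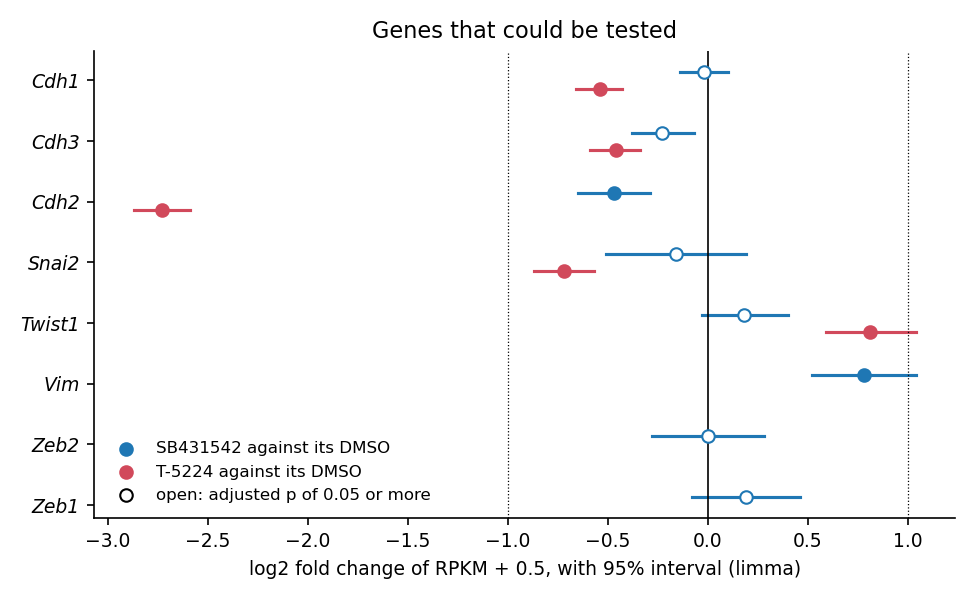
Log2 fold change of RPKM + 0.5, inhibitor against its own DMSO, for the genes that could be tested, with 95% intervals from limma; filled points have an adjusted p under 0.05 and dotted lines mark 2-fold. The interval of Cdh2 with T-5224 (−2.87 to −2.59) lies apart from those of the other genes.

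None of the EMT transcription factor genes that could be tested passed the test with SB431542, and those that passed it with T-5224 went in opposite directions. Snai2, which encodes SLUG, a zinc finger repressor of E-cadherin that is also found in basal keratinocytes, lies on mm9 chromosome 16 (14705945 to 14709488). Its RPKM was 57.6, 43.0 and 36.1 in the 3 DMSO libraries and 39.2, 39.1 and 41.6 in the 3 SB431542 libraries. The groups overlapped, and DMSO replicate 1 was the highest of the 6. The log2 fold change of Snai2 with SB431542 was −0.16 (standard error 0.15, 95% interval −0.51 to 0.19, limma adjusted p = 0.475), and without DMSO replicate 1 it was 0.02. A change of any size within these bounds is compatible with the values. With T-5224 the picture differed, as Snai2 was at 34.5 and 31.1 RPKM in DMSO and at 20.4 and 19.0 RPKM in T-5224, so both treated libraries lay below both controls. Mean Snai2 was 32.8 ± 2.40 RPKM (SD, n = 2) in DMSO and 19.7 ± 0.948 (SD, n = 2) with T-5224. It fell 1.67-fold, with a log2 fold change of −0.72 (standard error 0.07, 95% interval −0.87 to −0.57, limma adjusted p = 1.69e-06). Of all genes tested, 17.1% had a lower log2 fold change than Snai2 in that experiment.

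Twist1, a basic helix-loop-helix factor that binds E-boxes, lies on mm9 chromosome 12 (34642536 to 34644682). With T-5224 it moved the other way from Snai2. Its RPKM was 5.60 and 4.53 in DMSO and 8.84 and 9.63 in T-5224, so the groups did not overlap. The group means were 5.07 ± 0.757 (SD, n = 2) and 9.24 ± 0.558 RPKM (SD, n = 2). Twist1 rose 1.82-fold, with a log2 fold change of 0.81 (standard error 0.10, 95% interval 0.59 to 1.04, limma adjusted p = 1.58e-05). A lower log2 fold change was found for 85.2% of the genes tested. With SB431542, Twist1 was at 8.69, 8.87 and 10.3 RPKM, and in its DMSO at 8.34, 8.67 and 7.28 RPKM. Each SB431542 library was above each DMSO library, by a margin smaller than the spread within the groups, and the log2 fold change of 0.18 did not pass the test (standard error 0.09, 95% interval −0.03 to 0.40, limma adjusted p = 0.187).

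Zeb1 and Zeb2 encode zinc finger and homeodomain repressors of epithelial genes, and both were near 1 RPKM in the SB431542 experiment. Zeb1 was at 1.12, 1.08 and 0.973 RPKM in DMSO and at 1.04, 1.46 and 1.36 RPKM in SB431542, with overlapping groups. Its log2 fold change was 0.19 (standard error 0.12, 95% interval −0.08 to 0.46, limma adjusted p = 0.282). Zeb2, on the minus strand of mm9 chromosome 2 (44839154 to 44972915), was at 1.59, 1.17 and 1.10 RPKM in DMSO and at 1.24, 1.36 and 1.22 RPKM in SB431542. Its groups also overlapped, with a log2 fold change whose 95% interval ran from −0.28 to 0.28 (limma adjusted p = 0.992).

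Both ZEB genes of the T-5224 experiment were under the limit of 1 RPKM in every library and were not tested in the main comparison. Zeb1 was at 0.302 and 0.264 RPKM in DMSO and at 0.374 and 0.468 RPKM in T-5224. Zeb2 was at 0.834 and 0.826 RPKM in DMSO and at 0.578 and 0.579 RPKM in T-5224. The treated libraries lay above the controls for Zeb1 and below them for Zeb2. When genes of every level were fitted together, the log2 fold change was 0.23 for Zeb1 (standard error 0.08, limma adjusted p = 0.0644) and −0.30 for Zeb2 (standard error 0.08, limma adjusted p = 0.0284).

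Snai1, which encodes SNAIL and lies on mm9 chromosome 2 (167363695 to 167368314), was at or near the limit of detection in all libraries. It was at 0, 0.025 and 0.015 RPKM in DMSO and at 0, 0.03 and 0.05 RPKM in SB431542, which is at most 4 reads in a library. It had no reads in either DMSO library of the other experiment and was at 0.048 and 0.087 RPKM in T-5224, about 4 and 7 reads. A count of 0 allows up to 3 reads, which for Snai1 is 0.0473 to 0.0580 RPKM in those DMSO libraries, so only 1 T-5224 library lay clearly above that limit. Twist2, a close relative of Twist1 on mm9 chromosome 1 (93698038 to 93744605), had about 4 reads in DMSO replicate 1 of the SB431542 experiment (0.082 RPKM) and none in the other 5 libraries, where 3 reads would be 0.0458 to 0.0560 RPKM. These limits cover counting error only, and neither gene gives a comparison at this depth.

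The cadherins gave the largest change among the 10 genes. Cdh2 encodes N-cadherin, the cadherin of mesenchymal and neural cells, and had more mRNA here in DMSO than any of the 6 transcription factor genes. In the T-5224 experiment Cdh2 was at 53.6 and 51.5 RPKM in DMSO and at 7.68 and 7.32 RPKM in T-5224. Both treated libraries were far below both controls. The means were 52.5 ± 1.43 (SD, n = 2) and 7.50 ± 0.252 RPKM (SD, n = 2). Cdh2 fell 7-fold, with a log2 fold change of −2.73 (standard error 0.06, 95% interval −2.87 to −2.59, limma adjusted p = 1.55e-11). With 2 libraries per group, limma borrows much of the spread behind these values from other genes. For the same fold change the limma adjusted p was 2.71e-07 with no mean-variance trend and 2.98e-05 with no filter on low values. Only 0.833% of the genes tested had a lower log2 fold change than Cdh2.

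With SB431542, Cdh2 was at 85.8, 71.9 and 73.0 RPKM in DMSO and at 54.8, 53.6 and 57.8 RPKM in the treated libraries. Every treated library lay below every control, with DMSO replicate 1 the highest. The means were 76.9 ± 7.71 (SD, n = 3) and 55.4 ± 2.14 RPKM (SD, n = 3). Cdh2 fell 1.39-fold, with a log2 fold change of −0.47 (standard error 0.08, 95% interval −0.65 to −0.29, limma adjusted p = 0.00754). Without DMSO replicate 1, which differed most from its group over all genes, the log2 fold change of Cdh2 was −0.39 (limma adjusted p = 0.000229). Of all genes tested, 4.24% had a lower log2 fold change. The doses, the targets and the tables of the 2 inhibitors differ, so the values for Cdh2 stand side by side and the difference between them was not tested.

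Cdh1 encodes E-cadherin, the main cadherin of epithelial adherens junctions, and lies on mm9 chromosome 8 (109127251 to 109194146). With SB431542 it was at 121, 113 and 116 RPKM in DMSO and at 118, 116 and 111 RPKM in the treated libraries. The groups overlapped, the log2 fold change was −0.02, and its 95% interval ran from −0.14 to 0.10 (limma adjusted p = 0.775). With T-5224, Cdh1 was at 156 and 152 RPKM in DMSO and at 107 and 103 RPKM in T-5224, with no overlap. E-cadherin mRNA fell 1.46-fold, with a log2 fold change of −0.54 (standard error 0.05, 95% interval −0.66 to −0.43, limma adjusted p = 1.45e-06), while 23.1% of the genes tested had a lower log2 fold change. Snai2, a repressor of E-cadherin, was lower in the same libraries, where 39.4% of all genes tested were called lower. A link between Cdh1 and Snai2 was not tested.

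Cdh3 lies 46442 bases upstream of Cdh1 on the same strand of mm9 chromosome 8 (109034791 to 109080808). Its RPKM was 75.8 and 74.0 in T-5224 and 99.3 and 107.6 in the matching DMSO, with no overlap. P-cadherin mRNA fell 1.38-fold there, with a log2 fold change of −0.46 (standard error 0.06, 95% interval −0.59 to −0.34, limma adjusted p = 1.33e-05). With SB431542, Cdh3 was at 123, 106 and 108 RPKM in DMSO and at 94.3, 96.4 and 96.5 RPKM in the treated libraries, so the groups did not overlap. Its log2 fold change of −0.23 (standard error 0.07, 95% interval −0.38 to −0.07) had a limma adjusted p of 0.0501 and narrowly missed the threshold. Without DMSO replicate 1 the log2 fold change of Cdh3 was −0.16 with a limma adjusted p of 0.00492. It also passed the threshold with all libraries under a pseudocount of 1 (limma adjusted p = 0.0499) and under quantile normalization (limma adjusted p = 0.0348).

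The 3 cadherins were also set against each other within each library, as shares of their summed RPKM. Cdh2 made up 26.0%, 24.7% and 24.6% of the sum in DMSO of the first experiment and 20.5%, 20.2% and 21.8% in SB431542. Its share in the second was 17.4% and 16.6% in DMSO and 4.02% and 3.97% in T-5224. The share of Cdh2 was thus lower in every treated library than in every library of its own control, and Cdh1 took 56.3% and 55.9% in T-5224, against 50.4% and 48.8% in DMSO. The share of Cdh3 was 39.7% and 40.1% in T-5224 and 32.2% and 34.6% in DMSO. The ratio of Cdh2 to Cdh1 was 0.709, 0.634 and 0.629 in DMSO and 0.465, 0.462 and 0.519 in SB431542, and it was 0.344 and 0.339 in DMSO and 0.0715 and 0.0711 in T-5224. The summed level of the 3 cadherins in the T-5224 experiment was 309.6 ± 1.91 (SD, n = 2) in the controls and 187.6 ± 4.60 (SD, n = 2) in the treated cells, in RPKM, so the higher shares of Cdh1 and Cdh3 in T-5224 went with lower levels of both. These shares restate the single-gene values above and were not tested separately.

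**Figure D3:**
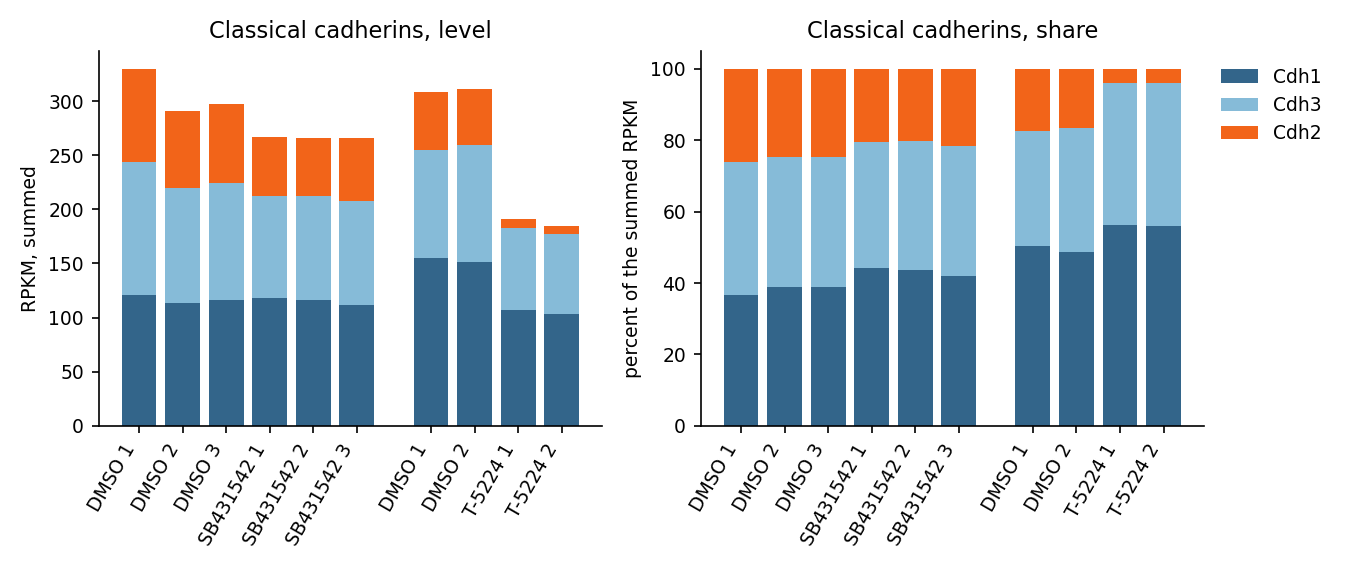
RPKM of Cdh1, Cdh2 and Cdh3 in each library, stacked (left) and as percent of their sum (right), with the SB431542 experiment before the T-5224 experiment. The share of Cdh2 is between 24.6% and 26.0% in DMSO and between 20.2% and 21.8% in SB431542, and 4.02% and 3.97% in the T-5224 libraries.

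Vimentin was the gene that rose with SB431542. Vim lies on mm9 chromosome 2 (13495554 to 13504453). It was at 1.80, 1.95 and 1.99 RPKM in DMSO and at 3.17, 3.53 and 4.32 RPKM in SB431542, and the groups did not overlap. The means were 1.91 ± 0.0998 (SD, n = 3) and 3.67 ± 0.590 RPKM (SD, n = 3). Vim rose 1.92-fold, with a log2 fold change of 0.78 (standard error 0.11, 95% interval 0.52 to 1.04, limma adjusted p = 0.00434). A lower log2 fold change was found for 99.4% of the genes tested. Vim and Cdh2, both counted as mesenchymal genes, therefore moved in opposite directions with the ALK5 inhibitor. Without DMSO replicate 1 the log2 fold change of Vim was 0.75 (limma adjusted p = 0.00169).

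Vim stayed under 1 RPKM in every library of the T-5224 experiment. It was at 0.289 and 0.415 RPKM in DMSO, about 20 and 36 reads, and at 0.116 and 0.143 RPKM in T-5224, about 13 and 15 reads. The treated libraries lay below the controls by 2.72-fold in the mean. In the fit over genes of every level the log2 fold change of Vim was −0.43 (standard error 0.09, limma adjusted p = 0.0129). The mean level of Vim in DMSO was 1.91 RPKM in the SB431542 experiment and 0.352 RPKM in the T-5224 experiment, in tables that were normalized separately and were not tested against each other.

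Vim is also a marker of fibroblasts, so the markers of other cell types were read in the same libraries. Of 8 fibroblast markers, 7 were listed in the SB431542 table and 1, Dcn, could be tested. Their summed RPKM was 2.45 to 2.64 in DMSO and 3.70 to 4.14 in SB431542. Dcn, a proteoglycan of connective tissue, made up most of this and rose from 2.13 ± 0.0772 to 3.71 ± 0.254 RPKM (log2 fold change 0.68, limma adjusted p = 0.00178). Without Dcn the sum was 0.381 to 0.421 in DMSO and 0.142 to 0.238 in SB431542, with the collagen genes Col1a1, Col1a2 and Col3a1 each at most at a mean of 0.120 RPKM, Thy1 at 0 in SB431542 and Lum not listed. With T-5224 the sum of the fibroblast markers was 2.54 to 2.58 RPKM in DMSO and 2.65 to 2.84 in T-5224. Without Dcn it was 0.551 to 0.797 RPKM in DMSO and 0.168 to 0.223 RPKM in T-5224. Whether such cells take part in the values of Vim was not tested beyond these levels.

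The same 10 genes can be placed among all genes by the size of their changes. The median log2 fold change of all genes tested was 0.008 with SB431542 and 0.003 with T-5224. Inhibitor and DMSO libraries did not overlap for 4 of the 8 genes tested with SB431542, as for 45.1% of all genes tested. The treated libraries were below for 2, as for 21.3% of all genes tested, and above for 2, as for 23.9%. With T-5224 the groups did not overlap for any of the 5, as for 89.7% of all genes tested, with 4 below, as for 44.5% of all genes, and 1 above, as for 45.1%.

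**Figure D4:**
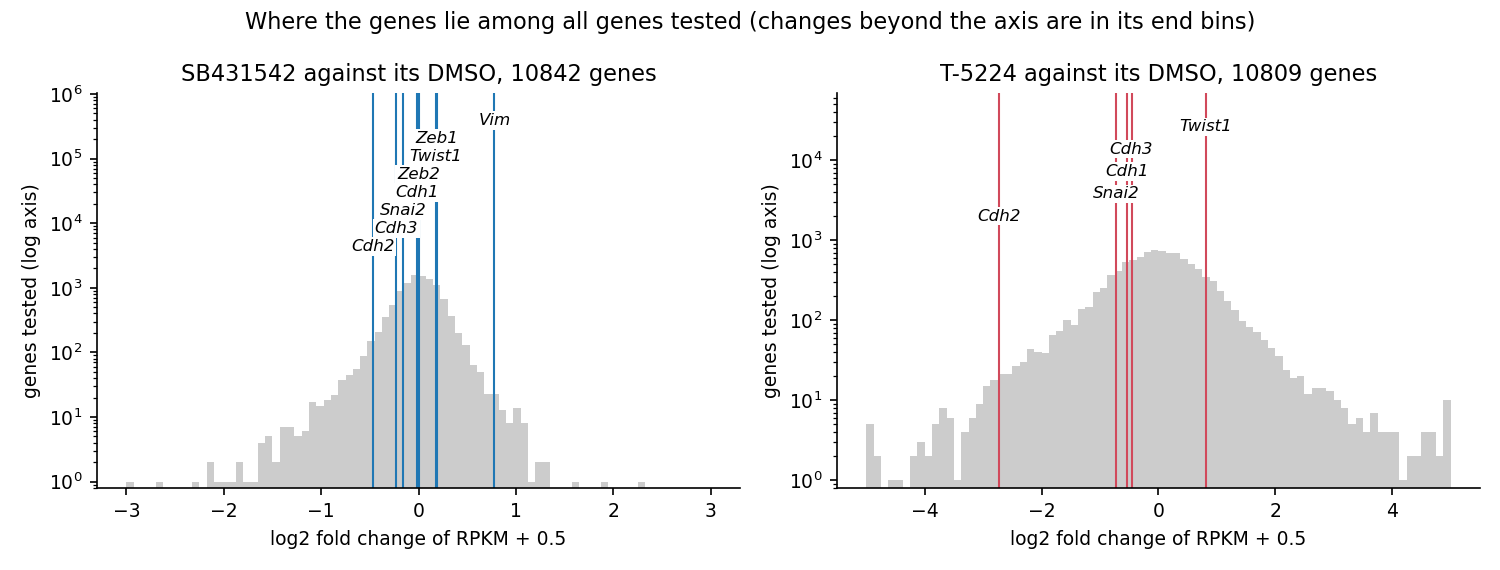
Histograms of the log2 fold change of all genes tested with SB431542 (left, 10842 genes) and T-5224 (right, 10809 genes) on a logarithmic count axis, with lines at the genes described here. Vim lies in the upper tail with SB431542, above 99.4% of genes, and Cdh2 in the lower tail with T-5224, where 0.833% of genes are lower.

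Genes that act with these factors and cadherins were read from lists made by gene name, and their counts stand beside the shares of all genes tested given above (10% lower and 10.2% higher with SB431542, 39.4% and 40.3% with T-5224). Among 16 other transcription factor genes linked to EMT, 10 could be tested with SB431542, of which 3 fell and 1 rose, with a median log2 fold change of −0.27. Sox4, a TGFß-induced SOX factor, fell from 60.8 to 38.9 RPKM (log2 fold change −0.64, limma adjusted p = 0.000973) and Sox9, a hair follicle stem cell factor, from 93.8 to 62.8 (−0.56, limma adjusted p = 0.0109). Hmga2, a chromatin architectural protein, rose from 1.06 to 1.63 RPKM (0.45, limma adjusted p = 0.0163). With T-5224 all 9 that could be tested fell, 5 of them more than 2-fold, with a median of −1.19, and among them were Sox9, from 125 to 36.3 RPKM (−1.77, limma adjusted p = 9.89e-11), and Foxc2, a forkhead factor, from 6.45 to 1.58 RPKM (−1.74, limma adjusted p = 2.32e-08). Twist1 was thus higher with T-5224 while none of the 9 tested on this list was. Under the limit for testing there, Hmga2 (0.239 to 0.564 RPKM) and Prrx2 (0.05 to 0.106) lay above their controls without overlap. Klf8 (0.138 to 0.0925) lay below, and the others listed overlapped.

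Factors that hold the epithelial state fell and rose in both experiments, in counts close to the shares of all genes tested given above. Of 12 tested with SB431542, Esrp2, an epithelial splicing regulator, fell (18.3 to 14.2 RPKM, log2 fold change −0.35, limma adjusted p = 0.00611) and Ovol1, a repressor of ZEB genes, rose (5.91 to 7.44 RPKM, 0.31, limma adjusted p = 0.0204). The median was 0.01. Of 12 tested with T-5224, 5 fell, 4 rose and the median was −0.06. Grhl3, a driver of epidermal differentiation, rose most, from 0.497 to 4.66 RPKM (2.37, limma adjusted p = 1.09e-08), and Esrp1 rose from 66.8 to 107 RPKM (0.67, limma adjusted p = 3e-07). Klf5 (−0.77, limma adjusted p = 1.99e-07) and Trp63, the master factor of stratified epithelia (−0.59, limma adjusted p = 1.03e-06), fell most.

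Among the partners of cadherins at adherens junctions, more of the genes tested fell than rose with each inhibitor. Of 12 tested with SB431542, 6 fell and 1 rose, with a median log2 fold change of −0.21, and none moved more than 2-fold. Ctnnd2, a catenin of the p120 family, fell from 5.51 to 2.79 RPKM (−0.87, limma adjusted p = 0.000979) and Lima1, which links catenins to actin, from 53.3 to 40.4 (−0.39, limma adjusted p = 0.0211), while Nectin1, a nectin adhesion molecule, rose from 26.9 to 31.1 (0.21, limma adjusted p = 0.0272). Of 12 tested with T-5224, 10 fell, 5 of them more than 2-fold, and 2 rose, with a median of −0.64. Lima1 fell from 61.2 to 19.9 RPKM (−1.59, limma adjusted p = 4.97e-10) and Ctnnd2 from 9.33 to 2.72 (−1.61, limma adjusted p = 5.85e-08), while Nectin2 (0.67, limma adjusted p = 3.33e-05) and Nectin3 (0.45, limma adjusted p = 0.00499) rose.

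Most other cadherin genes were under the limit for testing, which 3 of 20 reached in each experiment. Cdh11, a mesenchymal cadherin also known as OB-cadherin, fell from 3.95 to 2.12 RPKM with SB431542 (log2 fold change −0.76, limma adjusted p = 0.00355) and from 3.34 to 0.420 RPKM with T-5224 (−2.06, limma adjusted p = 3.64e-08). It was the 1 of the 3 that fell with SB431542, where the median was −0.06. With T-5224 all 3 fell, with a median of −0.81, among them Cdh24, from 1.51 to 0.658 RPKM (−0.81, limma adjusted p = 0.000398). Cdh13 was the most abundant of the 3, at 42.4 RPKM in DMSO and 40.4 in SB431542 (−0.06, limma adjusted p = 0.692). It fell from 83.3 to 63.4 RPKM with T-5224 (−0.39, limma adjusted p = 3.23e-05). In DMSO of that experiment its mean lay above that of Cdh2 (52.5 RPKM).

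Tight junction and epithelial surface genes went both ways. With SB431542, 4 of 19 fell and 3 rose (median log2 fold change −0.01). The barrier claudin Cldn4 fell from 10.3 to 6.15 RPKM (−0.69, limma adjusted p = 0.00649) and the protease inhibitor Spint1 from 4.86 to 3.22 (−0.53, limma adjusted p = 0.0145), while Cldn1 (0.30, limma adjusted p = 0.0114) and the trafficking GTPase Rab25 (0.24, limma adjusted p = 0.0220) rose. With T-5224, 7 of 20 fell and 12 rose (median 0.27). Cldn4 rose there, from 4.94 to 22.6 RPKM (2.08, limma adjusted p = 1.75e-09), as did Cldn23, from 0.395 to 2.95 (1.95, limma adjusted p = 7.06e-08), and the scaffold genes Patj (−1.19, limma adjusted p = 2.78e-08) and Cgn (−1.08, limma adjusted p = 1.53e-06) fell.

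Mesenchymal markers other than Cdh2 and Vim were divided as well. Of 14 tested with SB431542, 6 fell and 4 rose, with a median log2 fold change of −0.14. The membrane protease gene Mmp14 fell from 46.8 to 24.0 RPKM (−0.95, limma adjusted p = 0.000124), while Lgals1, which encodes galectin-1, rose from 106 to 180 (0.76, limma adjusted p = 0.000269). Of 13 tested with T-5224, 9 fell, 4 of them more than 2-fold, and 2 rose, with a median of −0.78. S100a4 fell from 15.5 to 1.25 RPKM (−3.18, limma adjusted p = 1.45e-09) and the matrix gene Tnc from 116 to 16.0 (−2.83, limma adjusted p = 5.33e-12), while fibronectin, Fn1, rose from 107 to 226 (1.08, limma adjusted p = 3.73e-09) and Dcn rose (0.35, limma adjusted p = 0.0146). N-cadherin and vimentin thus lay among genes of both directions in the SB431542 experiment.

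Of the co-repressors through which SNAIL and ZEB proteins act, none passed the test downward with SB431542, where Suz12 (log2 fold change 0.22, limma adjusted p = 0.0221) and Ezh2 (0.17, limma adjusted p = 0.0420), both subunits of the PRC2 complex, were the 2 of 11 that rose (median 0.01). With T-5224, 4 of 11 fell and 5 rose (median 0.08). Ezh2 rose from 21.9 to 48.5 RPKM (1.13, limma adjusted p = 7.43e-09), Eed rose (0.87, limma adjusted p = 1.3e-07), the LIM protein gene Ajuba fell (−1.57, limma adjusted p = 1.08e-09) and the deacetylase gene Hdac1 fell from 3.97 to 1.17 RPKM (−1.42, limma adjusted p = 3.8e-07). Hdac1 was at 65.8 RPKM in DMSO of the SB431542 experiment, so its level differed widely between the tables, which were not tested against each other. Of 6 genes for filament partners of vimentin, 2 could be tested. With SB431542 neither passed the test (median −0.05), and with T-5224 both fell (median −1.21), Synm from 1.96 to 0.325 RPKM (−1.57, limma adjusted p = 1.27e-06) and the cytolinker Plec from 42.2 to 23.2 (−0.85, limma adjusted p = 5.54e-07).

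**Figure D5:**
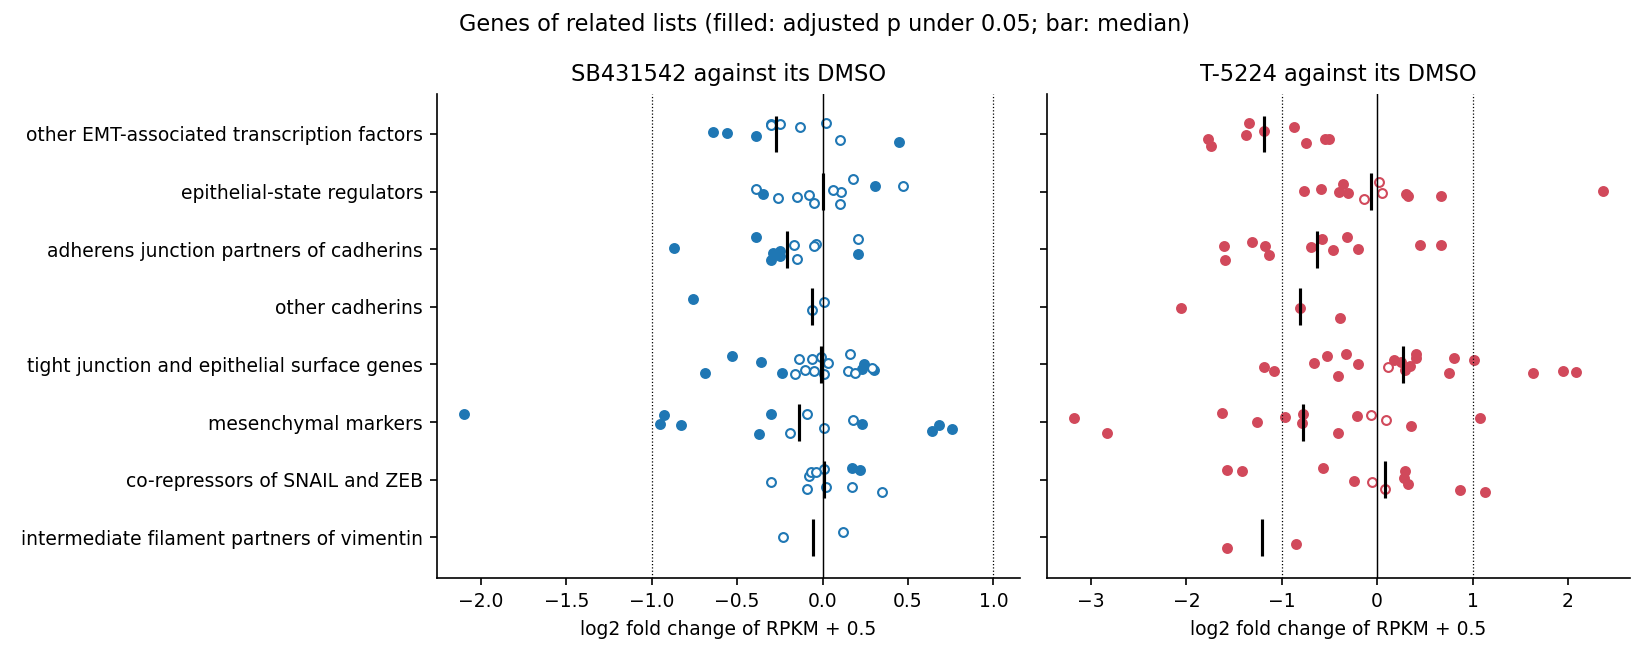
Log2 fold change of RPKM + 0.5 for the genes of 8 related lists with SB431542 (left) and T-5224 (right). Each point is a gene that could be tested, filled points have an adjusted p under 0.05, bars are list medians and dotted lines mark 2-fold. All 9 other EMT-associated factors that could be tested with T-5224 lie below 0 there, with a median of −1.19.

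Depth, read from the steps in the values of microRNA hairpin genes, was 31.9 to 51.4 M reads. DMSO replicate 1 of the SB431542 experiment stood farthest from the other replicates of its group, with a standard deviation of 0.272 over genes on the log2 scale, against 0.123 to 0.190 for the other libraries. Of 10 TGFß target genes, 9 were tested with SB431542 and all 9 fell, with a median log2 fold change of −0.94, while with T-5224 4 of 9 fell and 2 rose (median −0.16). Among markers of basal keratinocytes and BCC, Krt5 at 4890 RPKM and Krt14 at 4080 RPKM were the highest in DMSO of the SB431542 experiment. The Hedgehog pathway genes on this list were low there, with Gli1 at 2.4 and Ptch1 at 2.05 RPKM and Hhip not listed. The summed RPKM of the whole list was 11800 to 12000 in DMSO and 8180 to 8730 in SB431542, where 6 of 11 fell and 1 rose (median −0.30). In the T-5224 experiment it was 15800 to 16700 in DMSO and 2530 to 2640 in T-5224, where 10 of 11 fell and 1 rose (median −1.86). Most of the sum in every group was RNA of the keratin genes Krt5, Krt14 and Krt17. Trp63, Itga6, Itgb4 and Ptch1 did not pass the test with SB431542. The fall of Cdh2 with either inhibitor, and of Cdh1, Cdh3 and Snai2 with T-5224, thus went with a lower, mostly keratin, sum. The part of the one in the other was not tested. In the endothelial, immune and melanocyte lists of 4 genes each, only Pecam1, Cd68 and Mitf could be tested. The other genes of these lists were not listed or had group means of at most 0.164 RPKM. Pecam1 fell from 5.75 to 2.68 RPKM with SB431542 and from 11.3 to 4.39 with T-5224, and the limma test was passed in each. Cd68 was at 8.43 RPKM in DMSO and 8.08 in SB431542, which did not pass, and rose from 17.6 to 33.0 with T-5224. Mitf was at 11.5 RPKM in DMSO and 11.1 in SB431542, which did not pass, and fell from 9.06 to 6.08 with T-5224.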

How the data were processed

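RNA was isolated with an RNeasy kit and TruSeq Stranded mRNA libraries were sequenced on an Illumina HiSeq2000. Reads were aligned by the authors to mm9 with TopHat. HOMER's analyzeRepeats.pl gave the deposited RPKM values, 1 table per experiment. The gene annotation and whether strand was used in counting are not given in the sources used here, so reads of a gene and of an antisense partner may not have been told apart. RPKM is relative to the total of each library, so a change in very abundant genes can shift the others. The 10 value columns all entered the analysis (0 left out). DMSO columns of the T-5224 table bear the numbers 1 and 2, and the labels give 4 and 5, so these columns were assigned to the group only. Rows whose symbol had turned into a date were dropped, 22 and 23.

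Genes with a mean of at least 1 RPKM over a table were tested, 10842 and 10809, on log2(RPKM + 0.5) with limma 3.58.1 in R 4.3.3 (mean-variance trend, Benjamini-Hochberg adjustment over all genes tested), each inhibitor against its own DMSO. Fold changes on this scale understate those of low genes. RPKM are not counts, so no count test was run. The 10 genes and the lists were chosen with earlier results of these data known. Besides the 10 genes, the text names up to 2 lower and 2 higher genes per list and experiment, by the size of the change among those called, and the 2 genes nearest in pattern to each gene tested in both tables. Marker genes of the cell type check, list genes under the limit for testing and Cdh13 are named outside this rule, after their values were seen. For 1 gene that this rule names, the values are not reported here. On simulated data 197 and 195 of 200 changed genes were recovered in the comparisons with SB431542 and T-5224.

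Depth was estimated from microRNA hairpin genes under 250 bases with fewer than 6 reads. Between 88.0% and 100.0% of the 12 to 32 values per library lay within 0.05 of a whole read. Positions are from GENCODE on NCBIM37, the assembly behind mm9, and promoters from RefSeq on GRCm38.p6; the builds were not mixed. Deviations of same-numbered DMSO and SB431542 libraries from their group means correlated between −0.148 and 0.151, so the numbers were not taken as pairs. Alternatives were pseudocounts of 0.1 and 1, no filter or a mean of at least 5 RPKM, median centring, quantile normalization, no trend, a replicate block, no limit on the fold change, unadjusted p, and each library left out in turn. Blocking on the column numbers of the T-5224 table was added after seeing the data.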

Additional observations from a re-analysis of the deposited data

How the results depend on the processing

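Over 13 tested changes of the 10 genes and 169 alternatives, 158 kept direction and side of the threshold, 3 passed it anew, 8 reversed and none lost a call. Those that passed it anew were Cdh3 with SB431542 with a pseudocount of 1 (−0.23, limma adjusted p = 0.0499), with quantile normalization (−0.26, limma adjusted p = 0.0348) and without DMSO replicate 1 (−0.16, limma adjusted p = 0.00492); over all its alternatives the adjusted p was 0.00492 to 0.160. The reversals were of changes near 0 with SB431542, Snai2 without DMSO replicate 1 (0.02; −0.31 to 0.02 with each library left out), Cdh1 without DMSO replicate 1 or SB431542 replicate 3 (0 in both; −0.04 to 0), and Zeb2 with median centring (0), quantile normalization (0.05), and without DMSO replicate 1 (0.11), SB431542 replicate 1 (0.01) or SB431542 replicate 3 (0.02; −0.08 to 0.11). The called changes ranged from −0.51 to −0.39 for Cdh2 and 0.67 to 0.90 for Vim with SB431542, and with T-5224 from −2.79 to −2.66 for Cdh2, −0.62 to −0.52 for Cdh1, −0.55 to −0.40 for Cdh3, −0.80 to −0.65 for Snai2 and 0.67 to 0.95 for Twist1. Of the 8 genes tested with SB431542, 2 were lower with a pseudocount of 1, quantile normalization, unadjusted p or without DMSO replicate 1 (1 or 2 when each library was left out in turn), where Cdh3 was added, and 0 were higher at a mean of at least 5 RPKM, where Vim was not tested. With no filter in the T-5224 experiment, where Twist2 is not listed, Snai1 also passed upward (0.18, limma adjusted p = 0.0298, from 0 reads in DMSO). Vim and Zeb2 also passed downward in that fit. Beyond 2-fold, 63 genes were down and 25 up with SB431542; 38 were up with a pseudocount of 0.1, 12 up with a pseudocount of 1, 41 down and 10 up at a mean of at least 5 RPKM, and 1085 and 1107 with no limit on the fold change, where 1 of the 10 genes was down and 1 up and 21 and 12 genes of the related lists were, from 1 and 0 (2 down with a pseudocount of 0.1). With T-5224, 1144 were down and 1121 up; 742 were down at a mean of at least 5 RPKM, where 13 and 4 list genes were called, from 20 and 7, and 4260 and 4356 with no limit, with 4 and 1 of the 10 genes and 49 and 25 list genes. With the replicate block, 71 genes were down and 25 up with SB431542, Cdh2 and Vim kept −0.47 and 0.78 (limma adjusted p = 0.0216 and 0.00907), and the block changed no call of the 10 genes; not every library correlated best with its own number. The labels of the T-5224 groups share no numbers, but the columns of its table do, and a replicate block by these, chosen after seeing the data and with 1 residual degree of freedom, gave 1144 down and 1121 up and changed no call of the 10 genes. Deviations of its same-numbered libraries correlated at 0.059, so these numbers were not taken as pairs. Leaving out a library of the T-5224 experiment leaves 1 in its group, which is then assumed to vary like the others. The spread between replicates limits changes of Snai2, and read counts limit Snai1, Twist2 and, with T-5224, Vim, Zeb1 and Zeb2.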

Other observations

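The genes whose pattern over all 10 libraries was nearest to each of the 5 genes tested in both tables were found among 10461 genes, by the root mean square difference of log2(RPKM + 0.5) from the DMSO mean of each table. For Cdh2 they were Ddx46 (0.035, with log2 fold changes of −0.44 with SB431542 and −2.67 with T-5224) and Rin2 (0.078). For Cdh1 they were Adnp (0.017) and Npcd (0.033), and for Cdh3 Rnasek (0.031) and Phldb3 (0.035). For Snai2 they were Safb2 (0.058) and Nono (0.069), and for Twist1 Orc4 (0.066) and Noct (0.072), with log2 fold changes of 0.22 and 0.18 with SB431542 and 0.86 and 0.87 with T-5224. Likeness of pattern is a description over these 10 libraries and says nothing of shared control.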
